A study of Homo sapiens with 30 samples.

Results

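The interferon-stimulated genes are the genes that cells switch on after type I, type II or type III interferon binds its receptor. The 55 genes described here were chosen as a list of symbols, with no measured value in the rule but with earlier results of these data known. They comprised 5 sensors of viral RNA and related helicases, 4 transcription factors and 46 effectors. All 55 were found in each of the 3 count tables, among 60612 genes of the knockout table and 56303 genes of each of the other tables. DDX58 was listed under its newer symbol RIGI in the knockout table.

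Sensors such as DDX58 and IFIH1 bind double-stranded RNA and signal through MAVS to the interferon genes. Secreted interferon then acts on receptors and JAK kinases, and a complex that includes STAT2 and IRF9 binds the interferon-stimulated response element in promoters. The effectors made in this way block viral entry, replication and translation, and tumour cell lines are known to differ widely in how much of this program they run without added interferon.

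The study sequenced RNA from 5637, a line of human bladder carcinoma cells, in 3 experiments with 30 libraries in 10 groups of 3. In the first, RBPMS, which encodes an RNA-binding splicing regulator, was knocked out with CRISPR (KO1 and KO2), each set beside its own wild-type group (WT1 and WT2). The study's text gives a different guide RNA for each knockout. Its discussion names off-target effects as a possible reason for their limited agreement in splicing. In the second, cells overexpressed ANKRD10-1 or ANKRD10-2, the longer and the shorter splice variant of the ankyrin repeat gene ANKRD10, and both shared 1 control group with the empty vector (Vector). In the third, siANKRD10-1 or siANKRD10-2 was transfected, and both shared 1 control group with siNC. No interferon or virus is named in the labels for any group. The study's text places the ANKRD10-1 overexpression and the ANKRD10-2 knockdown in RBPMS knockout cells, whereas the labels give 5637 for every group, and its discussion describes the knockouts as expanded from single clones. A clone, its guide RNA and its genotype cannot be told apart here. If the study's text holds, ANKRD10 variant and RBPMS background cannot be told apart either. The labels do not say that replicates were separate cultures, so p-values measure only the spread between these samples.

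Totals ran from 44593108 to 69723937 counts in the 12 knockout libraries, from 31736779 to 47493499 in the 9 overexpression libraries and from 28511029 to 32784584 in the 9 knockdown libraries. RBPMS changed by -1.44 ± 0.07 (SE, adjusted p = 1.25e-07 in edgeR) on the log2 scale in KO1 and by -1.09 ± 0.06 (SE, adjusted p = 5.07e-08 in edgeR) in KO2. RBPMS lay between 38.9 and 44.5 CPM in WT1 and WT2 and between 14.2 and 21.4 CPM in KO1 and KO2. In all 18 libraries of the other experiments, including those with the vector and siNC, RBPMS lay between 3.58 and 6.27 CPM. No test was made between experiments. ANKRD10 changed by 0.67 ± 0.04 (adjusted p = 4.44e-09) and 0.41 ± 0.05 (adjusted p = 8.29e-05) with overexpression of ANKRD10-1 and ANKRD10-2, and by -0.24 ± 0.06 (adjusted p = 0.0159) and -0.25 ± 0.06 (adjusted p = 0.00122) with siANKRD10-1 and siANKRD10-2 (edgeR). It also fell in the RBPMS knockouts, by -1.18 ± 0.05 (adjusted p = 6.55e-08) in KO1 and -0.76 ± 0.04 (adjusted p = 3.98e-08) in KO2 (edgeR). Gene-level counts do not separate the ANKRD10 variants. The summed level of 9 urothelial markers was 2879 to 5732 CPM, and that of 6 leukocyte markers was at most 1.63 CPM in any library. The sum of 4 fibroblast markers was 27.8 to 56.2 CPM, most of it COL1A1, and that of 3 endothelial markers was at most 3.04 CPM.

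Promoter sequence was available for 45 of the 55 genes, as 300 bases around each RefSeq start site (GRCh38.p14). The core of the interferon-stimulated response element, searched as GAAANNGAA on both strands, occurred in at least 1 promoter of 33 of these 45 genes (73.3%), against 9.86% of 27305 genes in the table. The STAT dimer motif TTCNNNGAA occurred in 14 of 45 (31.1%) against 9.38% of genes, and the E-box CACGTG in 4 of 45 (8.89%) against 8.77%. The windows printed here show how the core sits in genes that the results turn on, in the orientation of the gene with the match, or its reverse complement, in capitals.

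ISG15 chr1:1013386-1013414, gene on the plus strand: aagggaaaccGAAACTGAAgccaaatttg
IFIT1 chr10:89392511-89392539, gene on the plus strand: actttcccctTTCGGTTTCcctaggtttc
MX1 chr21:41420559-41420587, gene on the plus strand: gagcagaaatGAAACCGAAactgaattgt
IFI44L chr1:78620365-78620393, gene on the plus strand: tcctagtgagGAAAAAGAAagttagtggc
IFI44 chr1:78649762-78649790, gene on the plus strand: cacactgagtTTCAGTTTCctttctctga
BST2 chr19:17405736-17405764, gene on the minus strand: ctgggaaactGAAACTGAAaacctaatta
IFI6 chr1:27672267-27672295, gene on the minus strand: gcagagtgcaGAAATAGAAactccgacag
IFIH1 chr2:162318687-162318715, gene on the minus strand: gaagagaatcGAAACAGAAaccaaagtca

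No match was found in the promoters of DDX58, STAT2, IRF1, IRF9, OAS1, SAMD9L, UBE2L6, HERC6, CXCL11, SP110, IFI35 or XAF1. This says only that these letters are absent from those windows.

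With either ANKRD10 variant overexpressed, nearly the whole list was lower than in the vector controls. In ANKRD10-1 cells, 49 of 54 tested members fell and none rose, with 6.31% of all 20457 genes called and 2.81% called lower. In ANKRD10-2 cells, 51 of 54 fell and none rose, with 19.9% of 20177 genes called and 9.25% called lower. The median log2 fold change of the members was -1.36 and -1.51, where the median of all genes was -0.00 in ANKRD10-1 and -0.01 in ANKRD10-2 cells. At least 2-fold and called changes numbered 34 and 37 members, against 0.391% and 1.19% of all genes. The counts of 0 higher came from edgeR's quasi-likelihood test, were 0 at an unadjusted p under 0.05, and were 0 in DESeq2. Because the comparisons share the 3 Vector libraries, they are not independent of each other. The 9 urothelial markers summed to 2879 to 3067 CPM in Vector, 3241 to 3297 CPM in ANKRD10-1 and 3298 to 3694 CPM in ANKRD10-2 libraries, and the part of this in the changes was not tested.

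**Figure D1:**
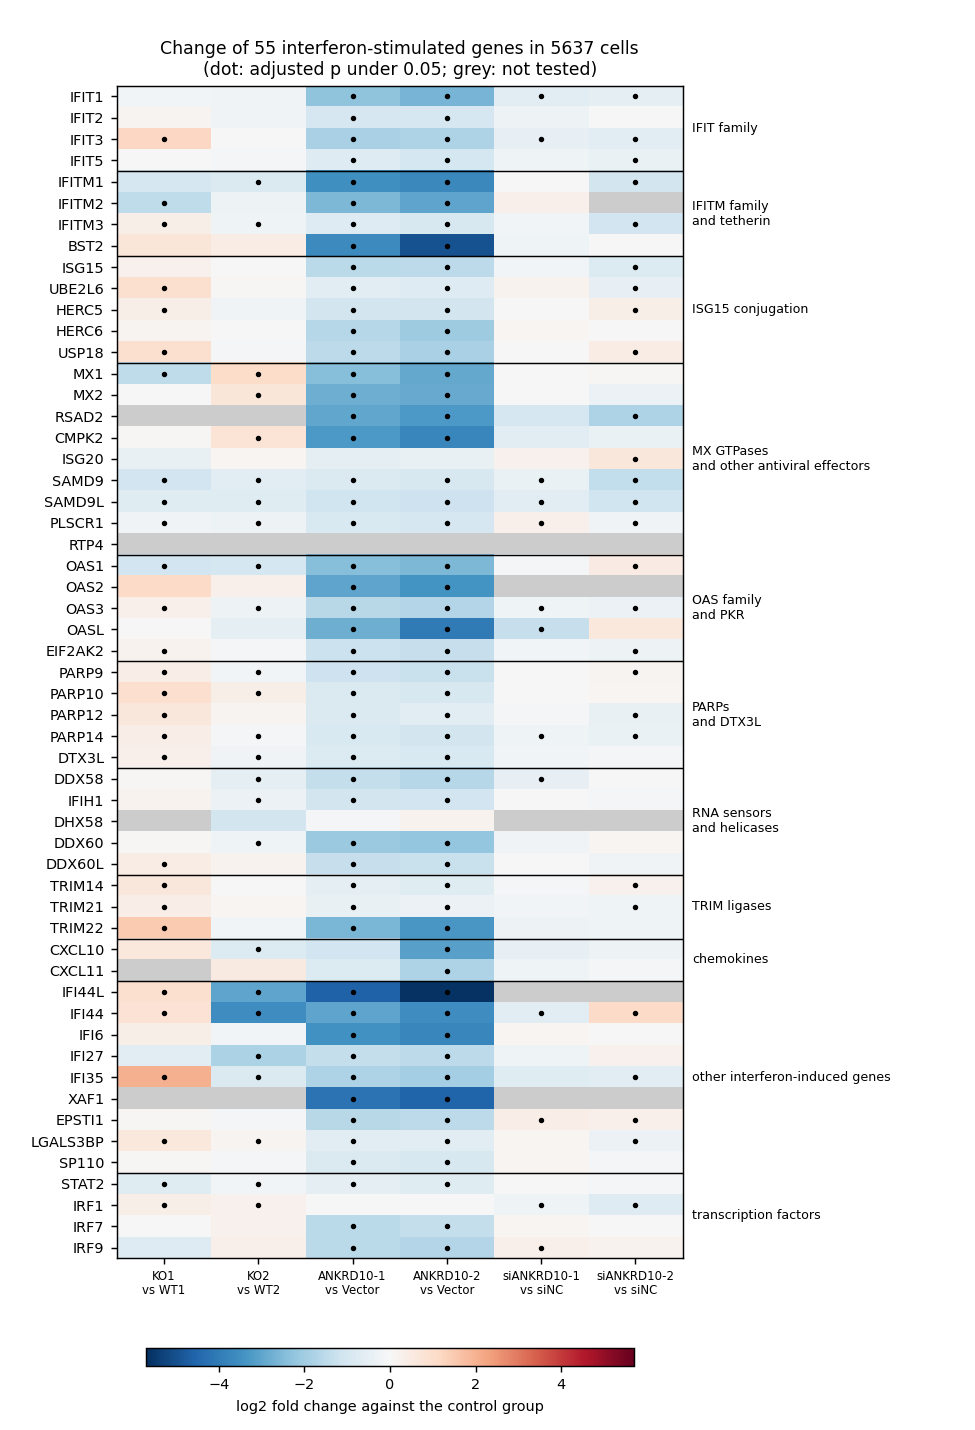
Log2 fold change of each of the 55 genes (rows, grouped by role) in 6 comparisons with a control group (columns); a dot marks an adjusted p under 0.05 in edgeR and grey a gene that was not tested. The 2 overexpression columns are blue in nearly every row, with 49 and 51 genes lower, while the knockout and knockdown columns are mixed.

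IFI44L, an interferon-induced protein that dampens the antiviral response, had the largest change. Its level was 118, 126 and 119 CPM in Vector, 4.59, 5.26 and 5.28 CPM in ANKRD10-1 and 2.37, 1.78 and 3.05 CPM in ANKRD10-2 libraries. All 6 overexpression libraries lay far below the 3 Vector libraries. The log2 fold change was -4.59 ± 0.07 (SE, adjusted p = 5.72e-18 in edgeR) and -5.62 ± 0.11 (SE, adjusted p = 7.18e-13 in edgeR). Its neighbour IFI44 fell from 75.8, 70.1 and 74 CPM to 8.67, 9.5 and 9.26 CPM and 6.42, 5.59 and 6.71 CPM, with log2 fold changes of -3.01 ± 0.06 (adjusted p = 1.12e-15) and -3.54 ± 0.08 (adjusted p = 1.22e-12) in edgeR.

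BST2, or tetherin, holds budding virus at the cell surface. It measured 51.5, 46.6 and 49.8 CPM in Vector, 4.25, 3.5 and 4.28 CPM in ANKRD10-1 and 1.77, 1.03 and 1.76 CPM in ANKRD10-2 libraries, and the groups did not overlap. Its change was -3.62 ± 0.08 (SE, adjusted p = 3.68e-15 in edgeR) and -4.98 ± 0.12 (SE, adjusted p = 6.02e-12 in edgeR). IFITM1, which restricts viral fusion at membranes, measured 9.57, 9.47 and 9.4 CPM in Vector against 0.665, 1 and 0.872 CPM and 0.835, 0.84 and 0.537 CPM. The change was -3.48 ± 0.14 (adjusted p = 9.48e-12) and -3.69 ± 0.16 (adjusted p = 1.28e-09) in edgeR, and IFITM1 shares 351 exon bases with IFITM2, so reads could be split between them. IFITM3 changed less, by -0.72 ± 0.08 (adjusted p = 1.56e-05) and -0.90 ± 0.09 (adjusted p = 1.13e-05).

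Among the antiviral GTPases, MX1 measured 72.3, 81.6 and 86.2 CPM in Vector, 13.7, 15.8 and 14.9 CPM in ANKRD10-1 and 10.8, 10.7 and 9.85 CPM in ANKRD10-2 libraries, a change of -2.44 ± 0.07 (adjusted p = 1.12e-13) and -2.93 ± 0.08 (adjusted p = 6.42e-12) (edgeR). MX2 changed by -2.79 and -2.89. CMPK2, a mitochondrial nucleotide kinase, was low throughout, at 1.87, 2.28 and 1.76 CPM in Vector and 0.172, 0.24 and 0.199 CPM and 0.157, 0.194 and 0.0976 CPM in the overexpressing cells, with changes of -3.25 ± 0.29 (adjusted p = 5.77e-07) and -3.72 ± 0.32 (adjusted p = 2.78e-06) in edgeR. XAF1, a pro-apoptotic antagonist of XIAP, measured 5.86, 6.57 and 6.19 CPM in Vector and below 0.4 CPM in each of the 6 other libraries, with changes of -4.22 ± 0.19 (adjusted p = 2.72e-11) and -4.58 ± 0.20 (adjusted p = 1.65e-09) in edgeR. IFI6 measured 15.8, 16.2 and 14.7 CPM in Vector and 1.18, 1.57 and 1.52 CPM and 1.46, 1.03 and 1.02 CPM with overexpression, changes of -3.45 ± 0.12 (adjusted p = 7.22e-13) and -3.71 ± 0.13 (adjusted p = 1.60e-10) in edgeR. For each of these genes the lowest Vector library was above the highest library of either variant.

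The OAS enzymes make the 2-5A messenger that activates RNase L. All 5 of OAS1, OAS2, OAS3, OASL and the kinase EIF2AK2 (PKR) fell at least 2-fold with either variant, with a median of -2.42 in ANKRD10-1 and -2.57 in ANKRD10-2 cells. OASL measured 2.33, 2.79 and 2.26 CPM in Vector, 0.322, 0.218 and 0.548 CPM in ANKRD10-1 and 0.0522, 0.129 and 0.244 CPM in ANKRD10-2 libraries, with a change of -4.05 ± 0.34 (adjusted p = 2.31e-06) in the latter (edgeR). OAS1, at 51.1 to 53.1 CPM in Vector, changed by -2.42 and -2.57. The 4 IFIT proteins, which bind viral RNA ends, all fell, and IFIT1 changed most, by -2.27 and -2.67. The 5 members of ISG15 conjugation fell by a median of 1.51 on the log2 scale in each variant. ISG15 itself, a ubiquitin-like modifier, measured 42.6, 37.6 and 43.9 CPM in Vector and 13.9, 13.8 and 15.4 CPM and 16.2, 13.1 and 13.9 CPM with overexpression. Smaller changes were seen for the PARP and DTX3L group, with medians of -0.84 and -0.90, and for TRIM14 and TRIM21, whereas TRIM22 changed by -2.61 and -3.32.

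Of the sensors, DDX58 measured 57.2, 58.5 and 60.4 CPM in Vector, 23.9, 22.8 and 21.4 CPM in ANKRD10-1 and 17.7, 20.7 and 19.1 CPM in ANKRD10-2 libraries. IFIH1 measured 92.7, 89.9 and 96.3 CPM, 46.6, 45.6 and 44 CPM and 45.3, 41.3 and 43.5 CPM in the same groups. Neither gene's Vector libraries overlapped those of a variant. DDX58 changed by -1.37 ± 0.06 (adjusted p = 1.29e-11) and -1.61 ± 0.07 (adjusted p = 9.12e-10), and IFIH1 by -1.04 ± 0.05 (adjusted p = 7.08e-11) and -1.09 ± 0.05 (adjusted p = 7.71e-09), in edgeR. DHX58, a regulator of both sensors, stayed below 0.4 CPM in every overexpression-table library and did not pass the test, with log2 values of -0.11 ± 0.46 (adjusted p = 0.935) and 0.22 ± 0.44 (adjusted p = 0.779).

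The transcription factors split. IRF1, which is also induced through other pathways such as NF-kappaB, measured 148, 130.1 and 149 CPM in Vector, 148, 143 and 141 CPM in ANKRD10-1 and 151, 139.5 and 149 CPM in ANKRD10-2 libraries. The 3 groups overlapped, and the difference was 0.01 ± 0.05 (adjusted p = 0.92) and 0.04 ± 0.06 (adjusted p = 0.667) in edgeR. IRF9, the DNA-binding partner of STAT2, measured 99.3, 103.2 and 106 CPM in Vector against 36, 35.3 and 35.4 CPM and 31.1, 30.9 and 33.2 CPM, changes of -1.53 ± 0.05 (adjusted p = 2.96e-13) and -1.69 ± 0.05 (adjusted p = 6.78e-11). IRF7, the amplifier of interferon-alpha genes, changed by -1.52 ± 0.10 (adjusted p = 7.75e-09) and -1.36 ± 0.11 (adjusted p = 8.96e-07), from 10.4, 10.7 and 11.4 CPM in Vector to 3.9, 3.56 and 3.91 CPM and 4.17, 3.78 and 4.63 CPM. STAT2 measured 50.5, 45.5 and 43.4 CPM in Vector, 33.8, 29.8 and 31 CPM in ANKRD10-1 and 28.7, 26.3 and 31.1 CPM in ANKRD10-2 libraries. Its change was smaller, at -0.56 ± 0.07 (adjusted p = 2.61e-05) and -0.69 ± 0.07 (adjusted p = 2.51e-05), but no Vector library overlapped.

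IRF1, DHX58 and ISG20, an exonuclease, were the members tested and not called with either variant. The chemokines CXCL10 and CXCL11 were below 0.8 CPM in all 9 libraries and passed only with ANKRD10-2, at -3.09 ± 0.77 (adjusted p = 0.0126) and -1.74 ± 0.49 (adjusted p = 0.0226) in edgeR, and RTP4 had too few counts to be tested. Direct comparison of the variants called 7 of 50 tested members, 1 higher and 6 lower in ANKRD10-2 than in ANKRD10-1, with 7.26% of all genes called (4.15% higher, 3.1% lower), and 2 members passed 2-fold against 0.359% of all genes. By the study's text the variant groups also differ in RBPMS background, and its part in these differences was not tested. RBPMS itself was not called between the variants, at 0.27 ± 0.15 (adjusted p = 0.306 in edgeR). BST2 differed by -1.37 ± 0.19 (adjusted p = 0.000102), IFI44L by -1.04 ± 0.17 (adjusted p = 0.000423) and TRIM22 by -0.70 ± 0.15 (adjusted p = 0.00615) in edgeR, with no overlap between the variants. TRIM22 was at -0.70 with all libraries, and without ANKRD10-1 replicate 2 it no longer passed (-0.58, adjusted p = 0.0584). Of CXCL10 and CXCL11, only 1 had enough counts to be tested between the variants, and it was not called.

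Set beside the other experiments, without a test because the tables were made separately, the Vector group had the highest summed level of the members. The 55 members summed to 3060 to 3108 CPM in the Vector libraries, to 1401 to 1414 CPM in ANKRD10-1 and to 1326 to 1347 CPM in ANKRD10-2 libraries. The siNC libraries held 1281 to 1307 CPM and the WT1 and WT2 libraries 1970 to 2039 CPM. The Vector mean was above the siNC mean for 48 of 55 members and above the WT1 mean for 47. The ANKRD10-1 mean was above the siNC mean for 27 of 55, and the ANKRD10-2 mean for 26. IFI44L, at 118 to 126 CPM in Vector, was at 0.122, 0.372 and 0.251 CPM in siNC and 1.59, 1.72 and 1.6 CPM in WT1. With 1 vector group, a change from the variants and a difference of the Vector cells themselves cannot be told apart.

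**Figure D2:**
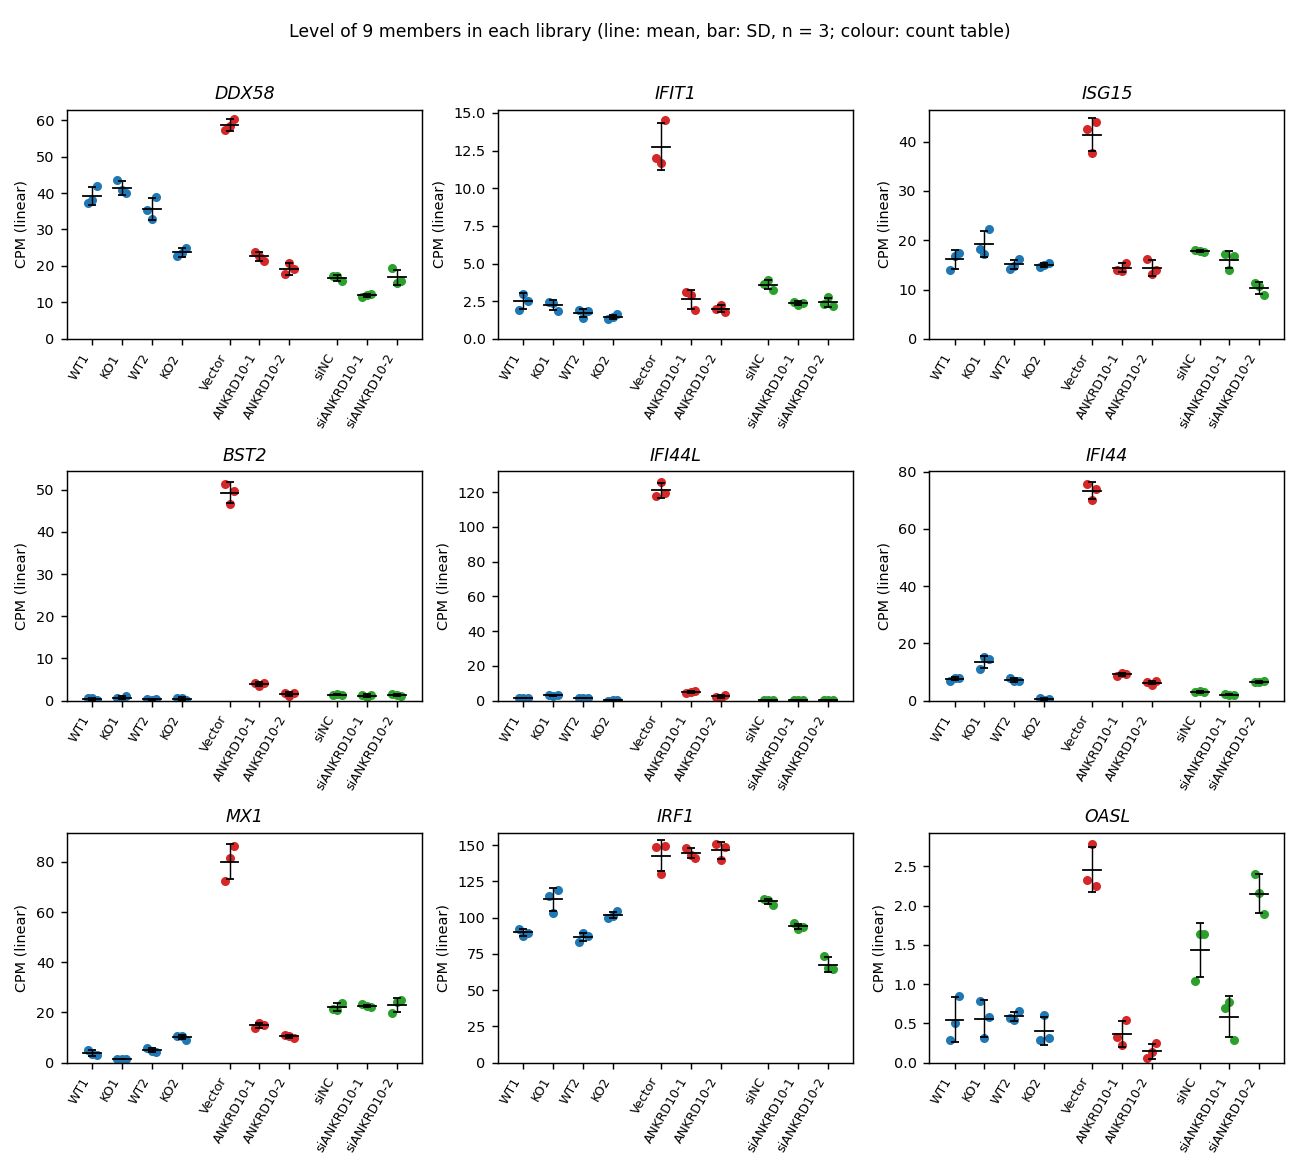
CPM (linear axis) of 9 members in each library of the 10 groups, with the mean as a line and the SD as a bar (n = 3), coloured by count table. IFI44L, IFI44, BST2 and MX1 stand high in the 3 Vector libraries alone, while IRF1 lies between 130 and 151 CPM in all 9 overexpression-table libraries.

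The wider pathway gives the context of these values. Of 45 further interferon pathway genes, 38 could be tested, and 12 fell and 0 rose with ANKRD10-1, while 17 fell and 1 rose with ANKRD10-2. Of all genes, 2.81% fell and 3.5% rose with ANKRD10-1, and 9.25% fell and 10.7% rose with ANKRD10-2. Of 4 signal transducers, 1 was called lower with each variant, at -1.397 in ANKRD10-1 and -1.508 in ANKRD10-2 cells. These were the largest falls among the pathway genes tested. SAMHD1, a dNTPase that restricts retroviruses, changed by -1.19 ± 0.05 (adjusted p = 1.29e-11) and -1.32 ± 0.06 (adjusted p = 1.32e-09), and SP100 by -1.03 ± 0.05 (adjusted p = 1.74e-10) and -0.77 ± 0.05 (adjusted p = 2.52e-07) in edgeR. Of 8 interferon genes only IFNE could be tested, and it did not pass with either variant, at -0.09 ± 0.28 (adjusted p = 0.908) and -0.99 ± 0.35 (adjusted p = 0.0614). Of the 9 receptors and kinases, 2 fell with each variant, and both were subunits of the type I receptor, IFNAR1 (-0.21 and -0.50) and IFNAR2 (-0.22 and -0.30).

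The RBPMS knockouts showed changes in both directions that differed between KO1 and KO2, which differ in guide RNA as well as clone. In KO1, 21 of 50 tested members rose and 7 fell, with 36.1% of all 17865 genes called (17.9% higher, 18.2% lower), and the median change was 0.23. Called changes of at least 2-fold numbered 7 members, against 6.43% of all genes. In KO2, 6 of 52 rose and 19 fell, with 38.5% of 18267 genes called (19.3% higher, 19.2% lower), and the median was -0.13, with 5 members past 2-fold against 5.99% of all genes. The median of all genes was -0.00 and -0.02. Of 50 members tested in both, 3 rose in both, 5 fell in both, 8 rose in KO1 and fell in KO2, and 1 did the opposite. Of all 17445 genes tested in both, 9.44% rose in both, 8.28% fell in both, 1.74% rose in KO1 and fell in KO2, and 2.42% did the opposite. The fibroblast markers summed to 52.1 to 56.2 CPM in WT1 and 32.4 to 38.4 CPM in KO1, and to 55.5 to 56.1 CPM in WT2 and 49.3 to 52.4 CPM in KO2, and their part in the changes was not tested.

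**Figure D3:**
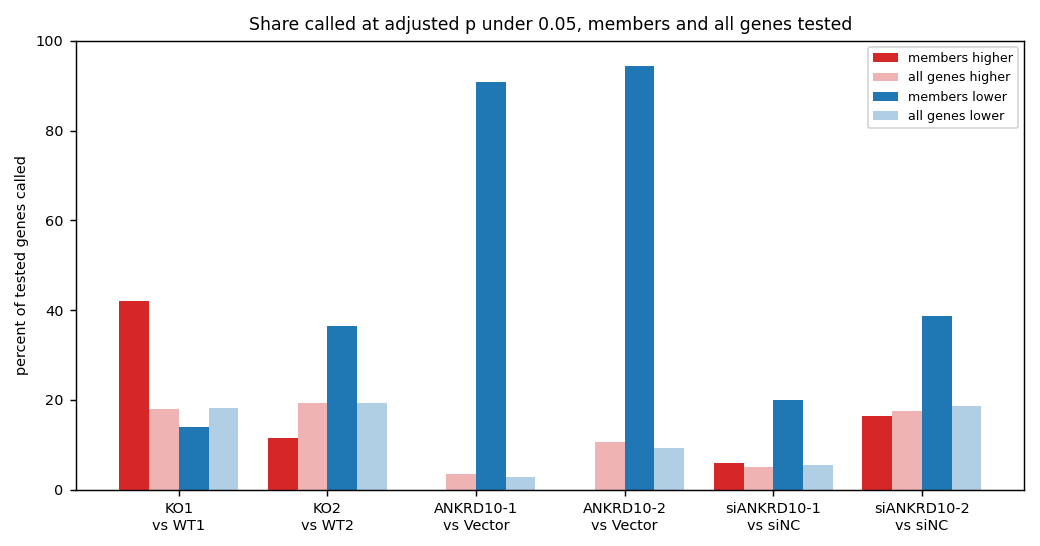
Percent of tested genes called higher (red) and lower (blue) at an adjusted p under 0.05 in edgeR, for the members (dark) and for all genes tested (pale), in 6 comparisons. Members called lower reach 90.7% and 94.4% in the overexpression comparisons, against 2.81% and 9.25% of all genes.

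IFI35, an interferon-induced leucine zipper protein, had the largest change in KO1. It measured 1.07, 2.35 and 1.91 CPM in WT1 and 7.3, 6.64 and 8.04 CPM in KO1, and 2.56, 2.56 and 2.62 CPM in WT2 and 1.09, 1.87 and 1.45 CPM in KO2. Every KO1 library was above every WT1 library and every KO2 library was below every WT2 library. The changes were 2.04 ± 0.25 (SE, adjusted p = 0.000103 in edgeR) in KO1 and -0.80 ± 0.24 (SE, adjusted p = 0.02 in edgeR) in KO2. TRIM22, a ubiquitin ligase that limits retroviral transcription, rose from 3.14, 1.5 and 2.88 CPM to 8, 7.6 and 5.78 CPM in KO1, by 1.51 ± 0.26 (adjusted p = 0.00087) in edgeR, and was at -0.13 ± 0.22 (adjusted p = 0.674) in KO2, between 2.52, 3.37 and 2.25 CPM and 2.24, 2.68 and 2.44 CPM. IFIT3 rose from 8.4, 7.17 and 8.06 CPM to 17.6, 17.3 and 18.6 CPM in KO1, by 1.18 ± 0.10 (adjusted p = 6.56e-06), while its KO2 libraries overlapped WT2 at 0.02 ± 0.11 (adjusted p = 0.926). No other IFIT gene passed in either knockout.

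MX1 moved in opposite directions. It fell from 5, 3.28 and 2.9 CPM in WT1 to 1.32, 1.5 and 1.24 CPM in KO1 and rose from 5.83, 4.61 and 4.37 CPM in WT2 to 10.7, 10.7 and 9.15 CPM in KO2. Neither pair of groups overlapped. The changes were -1.46 ± 0.25 (SE, adjusted p = 0.00105 in edgeR) and 1.05 ± 0.14 (SE, adjusted p = 9.55e-05 in edgeR). The median of all genes on its chromosome, 21, was -0.27 in KO1 and 0.16 in KO2, and its part in the result was not tested. MX2, on the same chromosome, was at 0.03 ± 0.19 (adjusted p = 0.93) in KO1 and rose by 0.71 ± 0.20 (adjusted p = 0.0156) in KO2 (edgeR).

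IFI44 and IFI44L, adjacent genes on chromosome 1, rose in KO1 and fell to under 1 CPM in KO2. IFI44 measured 6.96, 8.01 and 7.94 CPM in WT1, 11.1, 15.1 and 14.4 CPM in KO1, 7.87, 7.03 and 6.8 CPM in WT2 and 0.812, 0.335 and 0.66 CPM in KO2. IFI44L measured 1.59, 1.72 and 1.6 CPM, 3.34, 2.63 and 3.39 CPM, 1.36, 1.56 and 1.44 CPM and 0.0706, 0.138 and 0.314 CPM in the same order. For both genes KO1 lay above WT1 and KO2 below WT2 without overlap. IFI44 changed by 0.83 ± 0.13 (adjusted p = 0.000648) in KO1 and -3.56 ± 0.26 (adjusted p = 5.21e-07) in KO2, and IFI44L by 0.93 ± 0.21 (adjusted p = 0.00508) and -3.02 ± 0.47 (adjusted p = 0.000292) (edgeR). The median of all genes on chromosome 1 was 0.02 and -0.00.

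**Figure D4:**
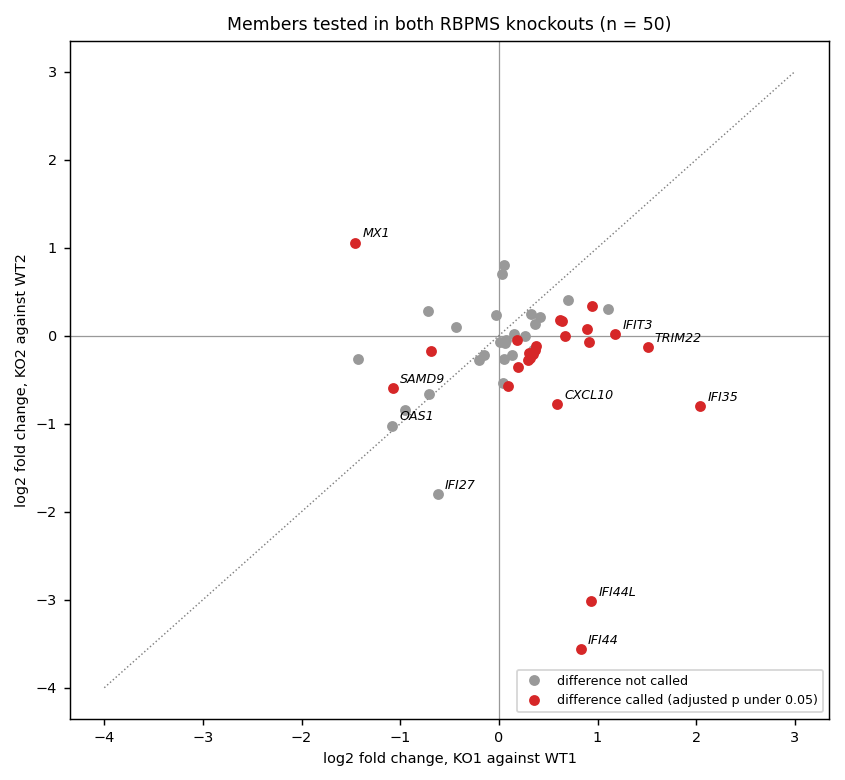
Log2 fold change of the 50 members tested in both knockouts, KO1 against WT1 (horizontal) and KO2 against WT2 (vertical), with red for members whose change differed between the knockouts (adjusted p under 0.05 in edgeR) and a dotted line of equal change. IFI44 and IFI44L lie lowest, at -3.56 and -3.02 in KO2, and MX1 lies at -1.46 in KO1 and 1.05 in KO2.

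The members that fell in both knockouts were OAS1, SAMD9, SAMD9L, PLSCR1 and STAT2. OAS1 measured 11, 9.46 and 10.5 CPM in WT1 and 5.63, 4.44 and 4.48 CPM in KO1, and 11, 11.9 and 10.7 CPM in WT2 and 4.79, 5.5 and 6.1 CPM in KO2, changes of -1.08 ± 0.14 (adjusted p = 0.000126) and -1.02 ± 0.12 (adjusted p = 3.50e-05) in edgeR. Groups did not overlap in either pair. SAMD9 and SAMD9L, neighbouring genes for antiviral and growth-limiting proteins, changed by -1.07 and -0.71 in KO1 and by -0.60 and -0.67 in KO2. STAT2 measured 47.2, 42.6 and 46.3 CPM in WT1, 29.5, 25.2 and 29.7 CPM in KO1, 48.8, 49.3 and 53.9 CPM in WT2 and 45.3, 44.7 and 44.1 CPM in KO2, with changes of -0.69 ± 0.08 (adjusted p = 5.34e-05) and -0.17 ± 0.05 (adjusted p = 0.0232). The KO2 value no longer passed against all 6 wild-type libraries (-0.09, adjusted p = 0.257), with all groups of the table in 1 fit (-0.17, adjusted p = 0.0548), or without KO2 replicate 2, KO2 replicate 3 or WT2 replicate 3. The members that rose in both were IRF1, PARP10 and LGALS3BP, a secreted glycoprotein. IRF1 measured 92.1, 87.4 and 89.6 CPM in WT1, 115, 103.4 and 119 CPM in KO1, 83.3, 89.1 and 87.4 CPM in WT2 and 99.7, 101.3 and 104.2 CPM in KO2, changes of 0.33 ± 0.06 (adjusted p = 0.00118) and 0.24 ± 0.04 (adjusted p = 0.000682) in edgeR.

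All 5 genes of the PARP and DTX3L group, ADP-ribosyltransferases and their ubiquitin ligase partner, rose in KO1, with a median of 0.38, and in KO2 1 rose and 3 fell. All 3 TRIM genes rose in KO1 and none passed in KO2. DDX58 measured 35.2, 32.8 and 38.9 CPM in WT2 and 22.7, 23.5 and 24.9 CPM in KO2, without overlap, a change of -0.58 ± 0.07 (adjusted p = 3.32e-05), while WT1 at 37.3, 38 and 42 CPM and KO1 at 43.6, 40.8 and 39.9 CPM overlapped, at 0.09 ± 0.07 (adjusted p = 0.337) (edgeR). DDX58 and TRIM14 lie on chromosome 9, where the median of all 724 tested genes was -0.41 in KO2 and that of 730 was 0.07 in KO1, and its part in their values was not tested. IFIH1 changed by -0.35 ± 0.07 (adjusted p = 0.00213) in KO2, from 20.4, 20.9 and 19.3 CPM to 15.1, 15.7 and 16.3 CPM, and was at 0.19 ± 0.08 (adjusted p = 0.0798) in KO1. IRF7 was at -0.03 ± 0.13 (adjusted p = 0.882) and 0.23 ± 0.09 (adjusted p = 0.0579) in the knockouts and did not pass. IRF9 was at only 1.01 to 2.51 CPM in the knockout table, against 16.4 to 106 CPM in the other tables, and shares 1838 exon bases with another gene on the same strand, so its level there is uncertain.

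Some calls at low levels were less firm. IFI27 measured 0.69, 0.645 and 0.926 CPM in WT2 and 0.194, 0.177 and 0.267 CPM in KO2, a change of -1.80 ± 0.44 (adjusted p = 0.00668) in edgeR, which was lost against all 6 wild-type libraries (-1.26, adjusted p = 0.22) and with all groups of the table in 1 fit (-1.80, adjusted p = 0.0817). IFITM1 measured 1.83, 2.94 and 1.71 CPM in WT2 and 1.09, 1.24 and 1.24 CPM in KO2, a change of -0.84 ± 0.27 (adjusted p = 0.0285) that was also lost against all 6 (-0.53, adjusted p = 0.166), with no filter on low counts (-0.86, adjusted p = 0.0559) and without each of KO2 replicates 1, 2 and 3 and WT2 replicate 2. IFITM2 changed in KO1 by -1.43 ± 0.33 (adjusted p = 0.00579), from 1.3, 1.84 and 1.39 CPM to 0.41, 0.635 and 0.632 CPM.

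A test of the difference itself, KO1 change minus KO2 change, called 24 of 53 members, 21 with the higher change in KO1 and 3 with the higher change in KO2, with 23.3% of all 19189 genes called (11.2% higher, 12.1% lower). Of the 24, 7 differed by at least 2-fold, against 5.52% of all genes. The wild-type groups were compared directly, which is not a difference of changes. WT2 against WT1 called 0 higher and 0 lower of 50 members in edgeR, with member values from -0.54 to 1.42. Of all genes 1.23% were called (0.578% higher, 0.654% lower, 0.0873% past 2-fold). At an unadjusted p under 0.05, 6 members were higher and 3 lower, and DESeq2 called 2 higher. Of the 38 pathway genes tested, 12 rose and 11 fell in KO1 and 10 rose and 11 fell in KO2, where 36.1% and 38.5% of all genes were called. GBP1, an interferon-induced GTPase, rose by 1.09 in KO1 and 1.09 in KO2, and STING1, the adaptor of DNA sensing, changed by -1.26 and -1.50. Of 8 interferon genes 1 could be tested in the knockouts, and it was called lower in both. It changed by -1.745 in KO1 and -0.766 in KO2, without overlap with the wild-type libraries in either.

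With the ANKRD10 knockdowns, members were called in both directions, and the share that rose was near that of all genes. More members were called with siANKRD10-2 than with siANKRD10-1, as were more of all genes (36.3% against 10.6%). With siANKRD10-1, 3 of 50 tested members rose and 10 fell, with 10.6% of all 18785 genes called (5.08% higher, 5.52% lower) and a member median of -0.14, and 1 member passed 2-fold against 0.367% of all genes. Without siANKRD10-1 replicate 1, or without siNC replicate 2, the count that fell was 6. With siANKRD10-2, 8 of 49 rose and 19 fell, with 36.3% of 18924 genes called (17.6% higher, 18.7% lower), a median of -0.12, and 6 members past 2-fold against 2.64% of all genes. The comparisons share the 3 siNC libraries.

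SAMD9 and SAMD9L fell with both siRNAs. SAMD9 measured 116, 122 and 112 CPM in siNC, 87.5, 95.6 and 82.2 CPM in siANKRD10-1 and 45, 41.6 and 43.9 CPM in siANKRD10-2 libraries, and SAMD9L 37.3, 36.7 and 32.6 CPM, 21.1, 23.4 and 22.7 CPM and 16.5, 15.1 and 16.5 CPM. The 3 groups were separate for both genes, with siANKRD10-2 lowest. SAMD9 changed by -0.40 ± 0.06 (adjusted p = 0.000419) and -1.42 ± 0.06 (adjusted p = 1.15e-15), and SAMD9L by -0.67 ± 0.07 (adjusted p = 1.10e-05) and -1.15 ± 0.07 (adjusted p = 6.80e-12) (edgeR).

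IFI44 moved in opposite directions. It measured 2.86, 3.38 and 2.89 CPM in siNC, 2.22, 1.82 and 2.06 CPM in siANKRD10-1 and 6.37, 6.4 and 6.86 CPM in siANKRD10-2 libraries, changes of -0.58 ± 0.18 (adjusted p = 0.0449) and 1.10 ± 0.14 (adjusted p = 5.80e-07) in edgeR. The fall with siANKRD10-1 was lost in DESeq2 (-0.59, adjusted p = 0.0671) and without each of its libraries in turn and each siNC library in turn. OASL measured 1.04, 1.64 and 1.63 CPM in siNC, 0.697, 0.766 and 0.281 CPM in siANKRD10-1 and 2.4, 2.16 and 1.9 CPM in siANKRD10-2 libraries. It changed by -1.30 ± 0.35 (adjusted p = 0.021) with siANKRD10-1, which was lost without siANKRD10-1 replicate 3 or siNC replicate 2 or 3, and was at 0.58 ± 0.23 (adjusted p = 0.0546) with siANKRD10-2. Between the siRNAs OASL differed by 1.89 ± 0.30 (adjusted p = 2.93e-05), IFI44 by 1.69 ± 0.15 (adjusted p = 9.94e-09) and IFITM1 by -1.04 ± 0.28 (adjusted p = 0.00512), siANKRD10-2 minus siANKRD10-1, and 21 of 49 members were called (10 higher, 11 lower), with 37% of all genes called (18.2% higher, 18.8% lower). Of these, 4 passed 2-fold against 2.73% of all genes. By the study's text the siRNA groups also differ in RBPMS background, and its part was not tested. RBPMS itself was not called between the siRNAs, at 0.14 ± 0.13 (adjusted p = 0.421 in edgeR). The IFITM1 difference was lost without siANKRD10-1 replicate 1 (-0.82, adjusted p = 0.0547).

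The membrane proteins IFITM3 and IFITM1 and the modifier ISG15 fell with siANKRD10-2. IFITM3 measured 31.9, 34.6 and 36.9 CPM in siNC, 35.2, 27 and 30.9 CPM in siANKRD10-1 and 16.8, 16.8 and 15.5 CPM in siANKRD10-2 libraries, a change of -1.08 ± 0.07 (adjusted p = 2.08e-11) with the latter. ISG15 measured 18, 17.8 and 17.6 CPM, 17.2, 14 and 16.8 CPM and 11.4, 10.7 and 8.97 CPM, a change of -0.78 ± 0.09 (adjusted p = 1.99e-07) with siANKRD10-2. For both, every siANKRD10-2 library was below every siNC library. IFITM1 changed by -1.02 ± 0.27 (adjusted p = 0.00375) (edgeR), from 1.55, 1.74 and 1.63 CPM to 0.685, 0.834 and 0.888 CPM. IFIT3 fell with both siRNAs, with changes of -0.47 ± 0.07 (adjusted p = 0.00041) and -0.65 ± 0.08 (adjusted p = 1.99e-07), from 24.7, 24 and 26.3 CPM to 18.6, 18.1 and 17.5 CPM and 15.1, 16.2 and 16.6 CPM. IFIT1 changed by -0.61 ± 0.16 (adjusted p = 0.0216) and -0.57 ± 0.17 (adjusted p = 0.0111), from 3.63, 3.91 and 3.26 CPM to 2.47, 2.23 and 2.37 CPM and 2.29, 2.78 and 2.2 CPM, and the siANKRD10-1 call was lost without siANKRD10-1 replicate 1 or 3 or siNC replicate 1 or 2.

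Of the sensors, DDX58 changed with siANKRD10-1 by -0.49 ± 0.08 (adjusted p = 0.000859), from 17.1, 17.2 and 15.9 CPM to 11.5, 12.1 and 12.2 CPM, and overlapped siNC with siANKRD10-2 at 19.3, 15.4 and 15.8 CPM, 0.01 ± 0.09 (adjusted p = 0.964) (edgeR). IFIH1 did not pass with either, at -0.00 ± 0.08 (adjusted p = 0.985) and -0.09 ± 0.08 (adjusted p = 0.436). IRF1 fell with both siRNAs, from 112, 112 and 109 CPM in siNC to 96, 92.2 and 93.8 CPM and 73.2, 64.9 and 64.2 CPM, by -0.24 ± 0.05 (adjusted p = 0.00729) and -0.72 ± 0.06 (adjusted p = 2.83e-10). IRF9 rose with siANKRD10-1 by 0.30 ± 0.07 (adjusted p = 0.0137), from 16.8, 16.5 and 16.4 CPM to 20.3, 20.6 and 20.2 CPM, a call lost without siANKRD10-1 replicate 1 or siNC replicate 2. STAT2 was at 0.02 and -0.06 and IRF7 at 0.11 and 0.01, and neither passed. The 9 urothelial markers summed to 5430 to 5732 CPM in siNC, 4545 to 4836 CPM in siANKRD10-1 and 3373 to 3499 CPM in siANKRD10-2 libraries, and the part of this in the changes of the members was not tested. Of the 38 pathway genes, 3 rose and 10 fell with siANKRD10-1, and 5 rose and 14 fell with siANKRD10-2, where 10.6% and 36.3% of all genes were called.

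Levels per length allow members to be ranked within a group. On the RPKM scale LGALS3BP ranked first of the members in all 10 groups, at 71 ± 2.93 (SD, n = 3) in Vector and 45.6 ± 2.41 in siNC. BST2 ranked next in Vector at 44 ± 2.21 RPKM and ISG15 after it at 43.9 ± 3.53, and these 2 levels did not differ beyond their spread. BST2 was at 0.406 ± 0.261 RPKM in WT1 and 1.25 ± 0.0682 in siNC. IFITM3 and SAMD9 took the next ranks in the wild-type groups, at 60.7 ± 4.07 and 50.4 ± 3.35 RPKM in WT2.

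Members were also set side by side by whether a promoter held the GAAANNGAA core. The median log2 fold change was -1.29 for 32 tested members with a match and -1.24 for 12 without in ANKRD10-1 cells, and -1.40 and -1.65 in ANKRD10-2 cells. The 10 tested members with no promoter sequence available fell further, with medians of -2.05 and -2.36. In KO1 the median was 0.31 for 31 with a match and 0.08 for 10 without, and in KO2 -0.16 for 31 and -0.05 for 11. Members with no promoter sequence had medians of 0.14 in KO1 and -0.10 in KO2. These medians are descriptions, and no test was made of them.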

How the data were processed

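RNA of 30 libraries was sequenced and the authors deposited gene-level read counts in 3 tables, with no normalization. Per the submitters' processing notes, reads were trimmed with Trimmomatic 0.36 and counted on GRCh38 with featureCounts of Subread 1.5.1, and whether counting used strand is not given in the sources used here. Of the members, 19 share exon bases with another gene in GENCODE, 14 of them on the opposite strand, so reads could not always be assigned. Counts were scaled to CPM, the reads of a gene per fixed number of library reads, with TMM factors. Each group was compared with its control by edgeR 4.0.16 quasi-likelihood tests (R 4.3.3) on genes passing filterByExpr (minimum count 10, total 15), adjusted by Benjamini-Hochberg across every tested gene, at a threshold of 0.05. The difference between knockouts was 1 contrast over 12 libraries. Alternatives were RLE scaling, no filter, DESeq2 1.42.0, a replicate block, all groups in 1 fit, other controls and leaving out each library. The fits were tested on simulated data, where the contrast between knockouts recovered fewer of the smaller changes than the comparisons with 1 control did. Named members were the sensors DDX58, IFIH1 and DHX58, the 4 transcription factors, and in each comparison the up to 6 called members (3 where no control was involved) that moved furthest, had a mean of 20 or more normalized counts and had separate groups. Other genes named in the text were chosen after their values were seen. The members and lists were chosen with earlier results of these data known.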

Additional observations from a re-analysis of the deposited data

Results flagged for a closer look

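The change of 24 members differed between the RBPMS knockouts by the interaction test in edgeR (adjusted p under 0.05), and each value is the log2 fold change in KO1 minus that in KO2. The largest were 4.38 for IFI44, 3.94 for IFI44L and 2.84 for IFI35, all higher in KO1, and -2.51 for MX1, higher in KO2. The other negative values were -0.52 for STAT2 and -0.48 for SAMD9, and both genes fell in each knockout. The remaining values were positive, at 0.66 for DDX58, 0.55 for IFIH1, 0.56 for OAS3, 0.23 for EIF2AK2, 1.16 for IFIT3, 0.56 for IFITM3, 0.81 for UBE2L6, 0.55 for HERC5, 0.98 for USP18, 0.67 for TRIM14, 1.64 for TRIM22, 0.53 for PARP9, 0.61 for PARP10, 0.48 for PARP12, 0.49 for PARP14, 0.50 for DTX3L, 1.37 for CXCL10, 0.44 for LGALS3BP. The median difference of all genes on a chromosome was 0.43 on chromosome 9, which holds DDX58 and TRIM14, and -0.40 on chromosome 21, which holds MX1, and its part in these values was not tested. Each group held 3 libraries, too few for a test of single libraries standing apart.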

How the results depend on the processing

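Every count of members called was within 1.5 times its value under RLE normalization, no filter on low counts, a replicate block, all groups of a table in 1 fit, and all 6 wild-type libraries as controls. DESeq2 moved 1 count past that, with 2 members higher in WT2 against WT1 where edgeR called 0. With 1 library left out, the counts outside that range spanned members lower in siANKRD10-1 against siNC 6 to 9, members higher in ANKRD10-2 against ANKRD10-1 0 to 1, members lower in WT2 against WT1 0 to 1. Labels share replicate numbers, but no comparison had all 3 correlations of same-numbered libraries over 0.1, so the numbers were not taken to pair them. With the number as a replicate block, the members called were 28 of 50 in KO1 and 25 of 52 in KO2, and 49 and 51 lower with ANKRD10-1 and ANKRD10-2, as without it. The log2 fold changes of named members that changed sign with 1 library left out were called neither with all libraries nor after it: IRF7 in KO1 against WT1 ran from -0.16 to 0.052, IRF1 in ANKRD10-1 against Vector ran from -0.044 to 0.049, DHX58 in ANKRD10-1 against Vector ran from -0.29 to 0.054, IRF1 in ANKRD10-2 against Vector ran from -0.018 to 0.082, IFIH1 in siANKRD10-1 against siNC ran from -0.077 to 0.038, STAT2 in siANKRD10-1 against siNC ran from -0.025 to 0.045, IRF7 in siANKRD10-1 against siNC ran from -0.038 to 0.25, DDX58 in siANKRD10-2 against siNC ran from -0.10 to 0.065, IRF7 in siANKRD10-2 against siNC ran from -0.13 to 0.13. Over all alternatives, 1235 values of named members kept their direction and call, 31 lost the call, 5 gained it and 18 changed sign. Those that gained it were IFIH1 in KO1 with all groups in 1 fit (0.19, adjusted p = 0.0413), IRF7 in KO2 against all 6 wild-type libraries (0.27, adjusted p = 0.0385), and IRF9 with siANKRD10-2 under RLE (0.20, adjusted p = 0.0483), with all groups in 1 fit (0.20, adjusted p = 0.0446) and without siANKRD10-2 replicate 3 (0.27, adjusted p = 0.02). Depth limits the low members: RTP4 was tested in none of the comparisons of 2 groups, and XAF1 and RSAD2 not in the knockouts.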
